A study of Homo sapiens with 5 samples.

Results

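The peaks described here are those of 1 anti-NRF2 CUT&Tag library of SNU638 cells that shared no base with any peak of the control library IgG 2, ranked again by the −log10 q value of the caller. Of 9045 NRF2 peaks, 8032 shared no base with an IgG 2 peak (88.8%, Wilson 95% interval 88.1% to 89.4%) and 1013 shared at least 1 base; the 5 peak lists of the series held 83512 peaks in all. SNU638 is an established human gastric cancer cell line, grown with serum in Dulbecco modified Eagle medium according to the labels of these libraries but in RPMI medium according to the study's methods, with no genetic change or treatment named for these libraries. In CUT&Tag, antibodies bound to chromatin in permeabilised cells guide a transposase that cuts nearby DNA and adds sequencing adapters, and a peak is a stretch where more of these fragments end up than the caller expects. NRF2 was targeted with an anti-NRF2 antibody from Cell Signaling Technology, and both control libraries, IgG 1 and IgG 2, with non-specific rabbit IgG of the same catalogue number. The labels do not tie IgG 2 to the NRF2 library, and the control given to the peak caller is not given in the sources used here. If an IgG library had served as that control, the shared peaks would be those that still passed over it, and if none had, they are peaks called without one, so the counts below describe the lists and not background that was or was not subtracted. Libraries for ACTL6A and BRG1, subunits of the BAF chromatin remodelling complex, completed the series. Each antibody had 1 library and the labels name no replicate culture, so every comparison below is a description of these libraries, with no test, and the intervals cover counting error only. Many cells of 1 line were pooled in a library, so a site bound in few cells and a weakly bound site in all cells cannot be told apart.

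NRF2, encoded by NFE2L2, is the transcription factor that switches on antioxidant and detoxifying genes. In unstressed cells KEAP1 holds it in the cytoplasm and hands it to a ubiquitin ligase for degradation. When KEAP1 is modified by electrophiles or oxidants, NRF2 accumulates, pairs with a small MAF protein and recognises a short DNA stretch, the antioxidant response element (ARE), with the core letters TGACNNNGC. Its best known targets make glutathione, run the thioredoxin system, reduce quinones and supply NADPH.

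The first set of sequences shows the ARE core matches inside the peaks at the transcription start sites of listed NRF2 targets, because these are the letters that NRF2 is known to read. Each is written 5′ to 3′ on the strand of the match, from GRCh38, with the core in capitals.
TXNRD1, chr12:104286920-104286948, minus strand: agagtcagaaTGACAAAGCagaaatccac
NQO1, chr16:69726997-69727025, minus strand: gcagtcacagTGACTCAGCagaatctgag
TXN, chr9:110257070-110257098, plus strand: tgctccagctTGACACAGCggtttagtgc
PRDX1, chr1:45522007-45522035, plus strand: cccgccggaaTGACTCGGCgctttccctc
CBR1, chr21:36069855-36069883, minus strand: ccagctagccTGACTTTGCagaacccgca
PGD, chr1:10398853-10398881, minus strand: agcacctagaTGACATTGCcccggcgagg
NFE2L2, chr2:177263923-177263951, plus strand: gagagatggaTGACTTCGCaaagccgcgc
SQSTM1, chr5:179819575-179819603, minus strand: tggccaagcgTGACTCAGCagcccaggcg
KEAP1, chr19:10502784-10502812, plus strand: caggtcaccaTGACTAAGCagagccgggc

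The second set shows the summits of 4 high peaks that lay away from any protein-coding start, because the highest ranks were not target promoters. The capital marks the summit base, and all 4 are on the plus strand of GRCh38.
Rank 1, chr17:26835927-26835987: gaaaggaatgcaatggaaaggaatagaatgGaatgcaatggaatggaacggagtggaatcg
Rank 2, chr17:25920182-25920242: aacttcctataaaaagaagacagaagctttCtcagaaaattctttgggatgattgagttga
Rank 4, chr17:43246563-43246623: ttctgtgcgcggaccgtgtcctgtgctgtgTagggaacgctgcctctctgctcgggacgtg
Rank 17, chr19:26489878-26489938: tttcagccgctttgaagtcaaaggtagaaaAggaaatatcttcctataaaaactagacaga
The rank 1 window is built from the pentamer GGAAT and close variants, the unit of human satellites of the simple-repeat kind. The 31 bases at the rank 4 summit occurred 10 times in the genome and lay in an array of U2 small nuclear RNA genes. The 31 bases at the rank 17 summit occurred 576 times, in sequence that repeated itself at the period of alpha satellite, the DNA of human centromeres.

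The removed peaks were nearly equal in both libraries. Over the 1013 NRF2 peaks that shared a base with an IgG 2 peak, the fold enrichment in the NRF2 library divided by that in the IgG 2 library had a median of 1.01 (quartiles 0.887 and 1.13) and ranged from 0.195 to 1.95. NRF2 had the higher fold in 535 of them (52.8%), and 0 reached 2 times the IgG 2 value. The number of fragments at the summit, which could be recovered for both libraries in 994 pairs, gave a median ratio of 1.06, and the summits lay a median of 35 bp apart. IgG 2 had 1746 peaks, of which 1013 (58.0%) shared a base with an NRF2 peak, and 99 of its highest 100 did so.

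The boundary of the rule was thinly populated. Among the 8032 retained peaks, 3 lay within 100 bp of an IgG 2 peak, 46 (0.573%) within 1 kb and 282 (3.51%) within 10 kb. Just outside was chr9:60624781-60625455, nearest to SPATA31A5 (290 kb away). It lay 3 bp from the IgG 2 peak and had 13 fragments at the summit where 2.86 were expected. The peak at chr21:8206525-8206806 (25 bp, 122 fragments against 71.3) was also just outside. Just inside the shared set was a peak nearest to PBX3 (124 kb away, 4 shared bases, 17 fragments against 4.87). Another was nearest to ZNF33B (2088 kb away, 9 shared bases, 16 fragments against 2.72). No retained peak touched an IgG 1 peak. A peak could be called in the NRF2 library from 8 fragments and in IgG 2 from 8, with lowest expected values of 1.48 and 1.23 fragments, so a site with fewer IgG 2 fragments than that stayed in the retained set.

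Retained and removed peaks differed in the DNA they covered. Retained peaks had a median width of 473 bp, a median fold of 4.44 and a median of 16 fragments at the summit, and removed peaks a median fold of 6.06 and 29 fragments. The median GC content of the 200 bp around the summit was 62% in retained peaks, against 40% in removed peaks and 41% in IgG 2 peaks. The 31 bases at the summit occurred more than 10 times in the genome in 7.88% of retained and 70.1% of removed peaks. The alpha satellite period was present in 434 retained peaks (5.40%) and 583 removed peaks (57.6%), and 10 or more copies of the GGAAT pentamer in 22 (0.274%) and 101 (9.97%). The removal therefore took mostly repeat DNA, and a small share of the same kind of DNA stayed.

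Removal replaced most of the top of the ranking. Before removal, the first 27 peaks were all shared with IgG 2, 95 of the highest 100 were shared, and 2 of the highest 100 lay at a transcription start site (TSS), that is, no more than 1 kb from where a GENCODE protein-coding transcript begins. After removal, 51 of the highest 100 lay at a TSS. Of all the highest 100 after removal, 5 had been among the highest 100 before. The peak now at rank 1 had been at rank 28, the peak at rank 100 at rank 353, and the peak at rank 1000 at rank 1541. The −log10 q values of the highest 100 ran from 90.6 to 1925 before removal and from 33.3 to 254 after it.

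The 10 highest peaks before removal are given by their nearest protein-coding gene only as a place, since most lay far from it. The highest, nearest to PROS1 on chromosome 3 (chr3:93470358-93470800, 503 kb away), had a −log10 q of 1925 in NRF2 and 2004 in IgG 2, with folds of 20.9 and 20.3. Peaks nearest to CWH43 (folds of 13.5 in NRF2 and 13.4 in IgG 2, and of 10.5 and 10.1), USP14 (8.54 and 8.44), TPTE (22.1 and 21.3, and 22.6 and 21.7), DUX4 (11.2 and 10.7), ZNF33B (21.1 in NRF2) and EMB (10.0 and 10.0, and 6.63 and 6.52) followed. In each of the 10, the folds of the libraries differed by less than 1.

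Down the list, the gap between the rankings closed. At ranks 101 to 250, 14% of peaks were at a TSS before and 80% after removal, and at ranks 501 to 1000 the shares were 56.6% and 82.8%. At ranks 2001 to 4000 they were 66.0% and 68.7%, and at the bottom of the lists, from rank 6001, 39.5% and 37.1%. After removal the share at a TSS thus had its maximum at ranks 501 to 1000, while the highest 100 held fewer TSS peaks (51%) than the 150 that followed.

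Of the 49 peaks among the highest 100 that were not at a protein-coding TSS, 10 lay at the start of a small nuclear or small nucleolar RNA gene, 8 at the start of another non-coding gene or a pseudogene, and 31 at no annotated start. Of these 31, 15 had more than 10 genomic copies of their summit or the alpha satellite period, and all 15 were over 100 kb from a TSS. None of the 51 TSS peaks met either repeat criterion.

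Of the 25 highest retained peaks, 13 were at a protein-coding TSS, and the others were at small nuclear RNA genes, at a pseudogene, in satellite-type sequence or at none of these. At rank 1, chr17:26835367-26836056 had 285 fragments at the summit where 13.8 were expected (fold 19.3, −log10 q 254). This peak, the pentamer satellite shown above, was 458 kb from WSB1, a ubiquitin ligase adaptor, had no BRG1 or ACTL6A peak, and lay 9664 bp from an IgG 2 peak. Rank 2, on the same chromosome and 1374 kb from WSB1, had 110 fragments against 3.22 expected and the highest fold of the set, 26.3. The highest peak at a protein-coding start was rank 3, at RBM39 (chr20:35741705-35742679), an RNA-binding protein of splicing, with 170 fragments against 13.2 expected (fold 12.0) and the summit 54 bp upstream of the start.

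Other TSS peaks of the highest 25 were of similar height. FAM86B1, of a methyltransferase family, was at rank 5 with 144 fragments against 10.2. CDK12, the kinase of the RNA polymerase tail, followed at rank 12 with 94 against 8.51. NAA38, a subunit of an amino-terminal acetyltransferase, shared its rank 14 peak with CYB5D1 (107 against 12.5), and RC3H2, an RNA-decay factor, was at rank 15 (88 against 7.59). The fold was lowest at NAA38 (8.02).

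Further down were promoters of varied function. RPS19 at rank 19, which encodes a protein of the small ribosomal subunit, had 82 fragments against 6.61 expected. TMEM18 (rank 18, 101 against 11.2) encodes a nuclear membrane protein and HUWE1 (rank 20, 87 against 7.97) a ubiquitin ligase. ERCC6L2, a helicase-like DNA repair factor, was at rank 21 (85 against 7.73), and NKTR, a cyclophilin, shared rank 22 with SEC22C (78 against 6.43). FUBP1, a single-strand DNA-binding regulator of MYC, shared rank 23 with DNAJB4 (75 against 6.33), and RBM15, an adaptor of RNA methylation, was at rank 25 (79 against 7.34). None of the 13 promoter peaks among the 25 was at a gene of the NRF2 target list.

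The remaining peaks of the 25 lay away from protein-coding starts. Rank 4 (200 fragments against 23.4) and rank 13 (115 against 14.7) lay at U2 genes in the intron of CCDC200, with rank 24 (100 against 13.1) beside them, and ranks 9 and 10 (107 and 101 fragments) at the U1 genes RNU1-3 and RNU1-4, nearest to NBPF1. Rank 6, chr21:6369123-6372552 (282 against 63.7), was the widest retained peak at 3430 bp, on the short arm of chromosome 21, with TPTE as its nearest gene. Rank 7 (140 against 13.7) lay 32.4 kb from B3GAT1, a glucuronyltransferase gene near the end of chromosome 11, and rank 8 (170 against 22.7) on the long arm of chromosome Y, 217 kb from VAMP7 and 10796 bp from an IgG 2 peak. Rank 11 (98 against 9.03) was at the pseudogene FAM86FP, nearest to FAM90A1, and rank 17 (61 against 2.69) was the alpha satellite shown above, nearest to ZNF254 and 5840 bp from an IgG 2 peak.

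BRG1 and ACTL6A were called at most of these places. Among the highest 100 after removal, 81 overlapped a BRG1 peak and 80 an ACTL6A peak, against 48 and 67 of the highest 100 before it. Over all retained peaks the shares were 71.6% with BRG1 and 52.4% with ACTL6A. The FAM86B1 peak coincided with the peak at rank 2 of the BRG1 list (fold 18.3) and rank 2 of the ACTL6A list (fold 21.5), and the U2 peak of rank 4 with BRG1 rank 4 and ACTL6A rank 40. The FAM86FP peak met BRG1 rank 16 and ACTL6A rank 26. The peaks at ranks 1 and 7 met neither. These multicopy loci thus ranked high in the NRF2, BRG1 and ACTL6A lists alike, and the part of their copy number in this was not tested.

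Small RNA genes of the spliceosome were counted as families chosen after the values had been seen, so the counts are a description. U1 and U2 RNAs recognise the splice site and the branch point, and each is transcribed from several near-identical genes, and the study's methods state that peaks were called from uniquely mapped reads. How reads of near-identical copies were placed was not tested, so the values of single copies are uncertain. Over all annotated genes of these classes, 2.84% of small nuclear RNA genes and 3.18% of small nucleolar RNA genes had a peak within 1 kb of the start, where 28.1% of protein-coding genes had one. A peak lay at each of the 6 U1 genes counted, with the highest at rank 9. These were RNU1-1, RNU1-2, RNU1-3, RNU1-4, RNVU1-7 and RNVU1-18, and no other U1 entry was counted. Of 21 U2 genes and annotated copies, 13 had a peak, with the highest at rank 4. In the U2 array of chromosome 17, 12 of 13 copies had a peak. Both U4 genes shared 1 peak (rank 953), 3 of 5 U5 genes had one (highest at rank 1022), and all 4 genes of the minor spliceosome had one (highest RNU12, rank 349). U6 genes had a peak at 1 of 5 (RNU6-2, rank 4696). U3, which guides ribosomal RNA cleavage, had a peak at 4 of 5 loci when overlapping entries were counted once, with SNORD3A at rank 38 and SNORD3B-1 at rank 55. The genes of 7SK, 7SL, RNase P and RNase MRP RNA had one in 5 of 5, with RPPH1 at rank 88. The highest peaks at RNU2-2P, RNU6-2, RNU11, RNU12, RN7SK, RMRP, RPPH1 and RN7SL1 also lay at a protein-coding TSS.

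The FAM86 family, also chosen after its values were seen, had peaks at most of its members. A peak lay at 12 of 14 annotated FAM86 symbols, which gave 12 separate peaks, 6 of them in the highest 100: FAM86B1 (rank 5), FAM86FP (11), FAM86GP (56), FAM86HP (58), FAM86KP (83) and FAM86JP (93). Over all annotated genes, 5.31% of transcribed unprocessed pseudogenes and 1.57% of other unprocessed pseudogenes had a peak. The lowest FAM86 peak was FAM86EP at rank 386, with 42 fragments where 5.76 were expected. The number of genomic copies of the 31 bases at these summits ranged from 1 to 9. It was 1 at FAM86DP (rank 120, 53 fragments against 5.38) and FAM86C2P (rank 284, 44 against 5.45), though the rest of these peaks was not searched for copies.

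Over all retained peaks, promoters made up the largest class. At a protein-coding TSS lay 4727 of 8032 (58.9%, 57.8% to 59.9%), in an exon 124 (1.54%), in an intron 949 (11.8%) and outside genes 2232 (27.8%). Among the removed peaks, 13 of 1013 (1.28%) were at a TSS and 924 (91.2%) outside genes. The median distance from summit to nearest TSS was 366 bp in retained peaks, and 14.8% lay over 100 kb away, against 81.9% of removed peaks. TSS peaks were wider (median 557 bp against 387 bp away from a TSS) and had a median of 18 fragments at the summit.

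Within promoters the summits were centred on the start. In 1931 of 4727 TSS peaks (40.9%) the summit was within 100 bp of the nearest start, the median absolute distance was 139 bp, and 2454 lay upstream and 2247 downstream. At 981 (20.8%) the peak reached the starts of 2 or more genes. Of the 3305 peaks away from a protein-coding TSS, 526 (15.9%) lay within 1 kb of the start of a non-coding gene or pseudogene, most often a long non-coding RNA (349 peaks).

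The retained peaks were unevenly spread. Chromosome 8 had 551, or 79.5 per 100 protein-coding genes, chromosome 21 had 68.0 and chromosome X 16.9. The megabases with the most peaks were 144 to 145 (38 peaks, 23 at a TSS) and 143 to 144 (34 peaks) of chromosome 8. On chromosome 21, 90 of 149 peaks lay in the first 13 Mb, and 32 of these between 8 and 9 Mb, none at a protein-coding TSS. In these 90, the 31 bases at the summit occurred more than once in the genome in 77. The copy number of these regions in SNU638 was not measured, and its part in the counts was not tested.

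At the level of genes, 5533 of 19689 protein-coding genes (28.1%) had a retained NRF2 peak at a TSS. For 12 further genes the only NRF2 peak at a start was one shared with IgG 2. The 13 shared TSS peaks were at 4 USP17L and 4 TAF11L genes, which are multicopy families, and at CARS2, HSPA5, MUC6, ZMYND11 and GPR35. At HSPA5, which encodes the chaperone BiP of the endoplasmic reticulum, the NRF2 peak had a fold of 5.35 and the IgG 2 peak 4.65, and at CARS2, a mitochondrial tRNA synthetase, 6.43 and 5.51. The removal therefore cost very few promoters.

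The NRF2 target list held 40 genes, and 18 of them (45.0%, 30.7% to 60.2%) had a retained peak at a TSS, where 28.1% of all genes did. The median of the best ranks was 2079.5 for these 18 and 2993 for all genes with a peak. IgG 2 had a peak at none of the 40. The list holds genes known from other tissues and was chosen with earlier results of these data known, so the difference is given as a count.

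Of the listed targets, TXNRD1 of the thioredoxin system had the highest peak. Thioredoxin and its reductase reduce disulphides in proteins, and peroxiredoxin and sulfiredoxin remove peroxide with their help. All 4 listed genes had a peak. TXNRD1, the reductase, had 73 fragments at the summit where 7.93 were expected, a fold of 8.29 and rank 48. TXN, thioredoxin itself, had 49 against 5.80 and rank 199. PRDX1 had 35 against 4.37 (rank 507) and SRXN1 27 against 5.24 (rank 1971). TXNRD1 had been at rank 262 and TXN at rank 518 before removal.

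Of the detoxifying genes, 5 of 11 had a peak. NQO1, the quinone reductase often used as the readout of NRF2 activity, had 54 fragments against 6.33 and rank 150. UGDH, which supplies glucuronic acid for conjugation, had 30 against 3.43 (rank 613), and CBR1, a carbonyl reductase, 24 against 2.28 (rank 772). BLVRB, a biliverdin reductase, had 26 against 4.27 (rank 1574). HMOX1, the haem oxygenase, was lower, with 17 against 3.94 and rank 5399. AKR1B10, AKR1C1, AKR1C2, AKR1C3, CBR3 and EPHX1 had no NRF2 peak at a TSS.

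Of the genes of NADPH supply, which feed the reductases above, 3 of 5 had a peak. PGD of the pentose phosphate pathway had 29 fragments against 4.24 (rank 1052). TALDO1, a transaldolase, had 19 against 4.94 (rank 5599). Neither gene of iron storage and none of 3 export genes had a peak at a TSS. FTL, the ferritin light chain, had its nearest NRF2 peak at 9942 bp.

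Of the listed genes of glutathione synthesis, supply and use, 2 of 7 had a peak (28.6%, where 28.1% of all genes did). GSS, glutathione synthetase, had 24 fragments against 4.80 at rank 2604. GCLC, the catalytic subunit of the rate-limiting enzyme, had 2 peaks: chr6:53544775-53545608 at rank 2951 (21 fragments against 3.95, fold 4.45, −log10 q 6.05) with its summit 8 bp downstream of a start at position 53545033, and chr6:53547788-53548146 at rank 5182 (17 against 3.81, fold 3.74, −log10 q 3.67). Before removal these were at ranks 3739 and 6105. The nearest IgG 2 peak was over 5 Mb away from both. The peak at rank 2951 overlapped a BRG1 peak and an ACTL6A peak, and the peak at rank 5182 a BRG1 peak only. The peak at rank 2951 held no ARE core match, and the other was not looked at for this. The study does report a sequence resembling the NRF2-binding motif near the GCLC start, found through the motif database JASPAR. The region it gives for this predicted site lies within the peak at rank 2951. It also reports NRF2 at that predicted site by ChIP followed by PCR, and at the GCLC promoter in its anti-NRF2 sequencing. GCLM, SLC7A11, GSR, GPX2 and CHAC1 had no NRF2 peak at a TSS, though GCLM and SLC7A11 had BRG1 and ACTL6A peaks there.

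Among the regulators, 4 of 8 had a peak, including those of NRF2 itself and of KEAP1. NFE2L2 itself had 19 fragments against 3.00 (rank 2639) and KEAP1 17 against 3.32 (rank 4334). SQSTM1, whose product p62 binds KEAP1, had 30 against 8.77 (rank 3814), and OSGIN1 27 against 5.53 (rank 2188). These 4 peaks were below the highest 2000, with folds from 3.17 to 5.00. The small MAF genes MAFF and MAFK had no peak at a TSS, with their nearest NRF2 peaks at 4812 bp and 2463 bp.

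All 18 targets with an NRF2 peak also had a BRG1 peak at a TSS, and 13 an ACTL6A peak. Of the 22 without one, 15 had a BRG1 peak, 3 an ACTL6A peak (GCLM, SLC7A11 and EPHX1) and 7 neither. This matched the wider pattern: of the 5533 genes with a retained NRF2 peak, 5451 (98.5%) had a BRG1 peak and 4364 (78.9%) an ACTL6A peak, against 63.6% and 38.5% of all genes. In the other direction, 43.6% of genes with a BRG1 peak and 57.6% of genes with an ACTL6A peak had an NRF2 peak. By peaks rather than genes, 94.9% of the retained TSS peaks and 38.3% of those away from a TSS overlapped a BRG1 peak.

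Other gene groups had shares both below and above that of the targets. Replication-dependent histone genes had a retained peak at 49 of 69 (71.0%), where neighbouring genes that share a peak are each counted. H2AC11 and H2BC11 shared the peak at rank 200. H1-4 and H2BC5 shared that at rank 255, with its summit 1192 bp and 601 bp from their starts. Genes of the proteasome had one at 28 of 48 (58.3%), led by PSMD5, PSMD12 and PSMG1. Cytosolic ribosomal protein genes had one at 42 of 89 (47.2%), with RPS19 and RPL7 among the highest, and mitochondrial ribosomal protein genes at 31 of 78 (39.7%), led by MRPL57, MRPL54 and MRPS18B. Zinc finger genes had one at 204 of 508 (40.2%), led by ZNF414, ZNF438 and ZNF566. Of the AP-1 genes, whose proteins bind a motif close to the ARE, 5 of 9 had one, with FOSL2 at rank 959, JUN at rank 1212 and ATF3 at rank 2168. The share of the NRF2 targets (45.0%) thus lay within the range of these groups, 39.7% to 71.0%.

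The ARE core was modestly more frequent at the summits than beside them. TGACNNNGC, on either strand, was in the 200 bp around the summit of 10.2% of the 8032 retained peaks (9.59% to 10.9%) and in 6.73% of windows of the same length 1 kb to either side. In removed peaks the shares were 5.13% and 6.17%, and in IgG 2 peaks 5.56% and 6.27%. Among 35116 RefSeq promoters of GRCh38.p14, 9.23% of windows of 200 bp held it. A reversed core, GTCANNNGC, in which TGAC is replaced by its reverse complement, is not an ARE but still holds TGAC on the opposite strand. This reversed core was at 8.86% of retained summits and 5.18% of flanks, so a core of like composition had a similar excess. GC content also differed, with medians of 62% at the summit and 47% in the flanks. Its part in these shares was not tested.

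Away from protein-coding starts the ARE core was at 10.3% of 3305 summits and 7.84% of flanks, and the reversed core at 8.11% and 5.16%. In the highest 1000 retained peaks the ARE core was at 117 summits and the reversed core at 90. The 3 highest peaks away from a TSS with an ARE core at the summit were 2 in the U2 array (ranks 54 and 64) and chr21:7478807-7481156 (rank 107).

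Among other promoter motifs, the SP motif CCCGCCC was at 25.1% of retained summits and 5.27% of flanks, and the ETS motif CCGGAAG at 7.03% and 1.15%. At the retained TSS peaks alone, the same motifs were at 36.1% and 10.1% of summits, and in RefSeq promoters in 29.3% and 7.71% of windows. The CCAAT box ATTGG was equal at summits and flanks over all retained peaks, at 21.9%. In TSS peaks it was at 24.5% of summits and 21.4% of flanks, and away from a TSS at 18.1% and 22.7%. NRF1, a separate factor with the motif GCATGCGC, was at 1.73% of all retained summits and 0.616% of flanks, and the E-box CACGTG at 4.35% and 3.08%. CTCF was at 0.237% and 0.0809%. The AP-1 motif TGANTCA, which can overlap an ARE, was at 3.11% of TSS summits and 4.73% of their flanks, but at 7.05% of summits away from a TSS and 4.49% of their flanks.

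Taking the highest peak of each of the 18 targets, 9 held an ARE core, 6 with 1 match and 3 with 2 (NFE2L2, SQSTM1 and KEAP1). Over whole peaks, 24.1% of all retained peaks and 26.7% of retained TSS peaks held one, but the target peaks were wider (median 838.5 bp against 473 bp and 557 bp), and the part of width was not tested. The matches were rarely at the summit. That of PRDX1 was 54 bp from it, that of CBR1 64 bp and that of PGD 95 bp, while those of NQO1 and TXN were 217 bp and 201 bp away. NQO1 and SQSTM1 held the same core letters, TGACTCAGC, which also contain the AP-1 motif.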

How the data were processed

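CUT&Tag peak lists of SNU638 cells on hg38 were used: NRF2, IgG 1, IgG 2, BRG1 and ACTL6A. Per the submitters' processing notes, fastp 0.23.0, FastQC, BWA, MACS2, deepTools and HOMER 4.11 were used; per the study's methods, peaks were called from uniquely mapped reads. Neither the control given to the caller nor the IgG library made with NRF2 is stated. The deposited lists give, per peak, an integer display score, a fold enrichment (a ratio), and the −log10 p-value and −log10 q-value of the caller, and every NRF2 peak had a q under 0.05. Read depth is not held in the lists. From fold and p, the fragments at each summit were recovered, on the basis that fold is fragments + 1 over expected + 1 and p is Poisson, within a tolerance of 0.001; all 8032 retained peaks gave a whole number.

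Peaks were ranked by −log10 q. At a TSS means no more than 1 kb from the start of a protein-coding transcript of GENCODE release 44 (GRCh38, the build of the files). Motifs were searched on both strands. RefSeq promoters were windows of 200 bp before the start. pysam 0.24.0, pandas 2.3.3, SciPy 1.17.1 and NumPy 2.4.6 ran under Python 3.11.15, and the scripts were tested on simulated data. Intervals are Wilson 95%. No test was run, since each antibody had 1 library.

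Genes named were the nearest to the 25 highest retained peaks and the 10 highest before removal, GCLC, listed NRF2 targets with a peak, the 3 highest distal peaks with an ARE core, and the 3 highest genes of each other list. Members and lists were chosen with earlier results of these data known. The small RNA and FAM86 families, the pentamer count the shared TSS genes and the whole-peak ARE share were chosen after seeing the values. The peaks of IgG 1 carry BRG1 in their names. Alternatives are in the closing section. Some named items are not reported here.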

Additional observations from a re-analysis of the deposited data

How the results depend on the processing

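Of 53 values under other settings, 27 stayed within the counting interval of the main value (counts, within 1.5 times). The share of NRF2 peaks without an IgG 2 peak (88.8%) was 89.5% where IgG 2 had to cover at least 50% of the NRF2 peak, 90.8% with only IgG 2 peaks of −log10 q of at least 5, 81.7% with only such NRF2 peaks, and 99.9% without IgG replicate 2, where the 11 peaks of IgG 1 are the control. The share at a TSS (58.9%) was 57.6%, 72.8% and 52.4% for the last 3 of these, 54.8% within 250 bp, 62.2% within 3 kb and 54.9% with 1 start per gene. The highest 100 had 51% at a TSS, 2% without IgG replicate 2, 37% ranked by fragments and 71.6% for the highest 500. The median distance to a TSS (366 bp) was 684 bp without IgG replicate 2 and 608.5 bp with 1 start per gene. The ARE core share (10.2%) was 4.81% with a purine before the core (flanks 3.26%), 32.1% with a looser core (26.3%), 23.1% in 500 bp (16.6%) and 11.0% with −log10 q of at least 5. BRG1 overlap of the highest 100 (81%) was 71% where both peaks had to be covered by 50%, 88.8% for the highest 500 and 67% ranked by fold. Without peaks whose summit 31-mer has over 10 genomic copies, chosen after seeing the data, the values were 63.7% at a TSS, 64% of the highest 100, a median of 293 bp and 94% with BRG1. The 18 target genes became 14 to 21.

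No paired analysis was possible because NRF2 and IgG 2 are single libraries. The NRF2 values thus have no replicate error, and IgG 1 and IgG 2 differ from each other in their number of peaks (11 and 1746); which of these alternatives is closer to a matched control was not tested. Depth limits the lists at 8 fragments per summit.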
